A study of Mus musculus with 26 samples.

Results

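The transcript clusters uc008spx.1, uc007upr.1 and uc009hgm.1 of mouse liver were far more abundant in RNA held by beads with an antibody against hnRNPK from nuclear extract than in RNA held by the same beads from cytoplasmic extract. They are 3 of 31469 clusters in the deposited tables, and they were chosen by that difference in the IP counts, so the difference itself is described here and not tested. Each cluster held a single transcript, as did 19320 clusters of the series, with a deposited length of 275 nt for uc008spx.1, 557 nt for uc007upr.1 and 1391 nt for uc009hgm.1. No table used here pairs these identifiers with gene symbols, so the genes and their roles are not named, and the tissue could not be checked against marker genes.

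Wild type stands for C57BL/6J mice on normal diet, high-fat diet for C57BL/6J mice on that diet, and ob/ob for the B6.V-Lepob/J strain on normal diet, whose mutation removes the satiety hormone leptin. Age and sex of the mice are not given in the sources used here. Liver was homogenised in hypotonic buffer, the supernatant was taken as cytoplasm, and nuclei were extracted with salt. Both extracts were passed over control IgG beads before the immunoprecipitation (IP). The 26 libraries were 12 of total RNA, 6 of cytoplasmic IP, 6 of nuclear IP and 2 of control IgG, 1 from each extract, from mixed mice. Each mouse group had 2 replicate numbers per kind of RNA, and total RNA had 2 libraries per number. The libraries of a number were summed, and a unit below is a replicate number of 1 group. No label states that the numbers are different animals, so the tests weigh differences only against sample-to-sample spread, part of which may be technical.

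hnRNPK is an RNA-binding protein with KH domains that prefers stretches rich in C. It is mainly nuclear and moves between nucleus and cytoplasm, and it is known for parts in transcription, splicing, RNA stability and translation. Control IgG beads carry no antibody against hnRNPK, so their RNA is a measure of what the beads hold in its absence. The IgG libraries are called so by their titles, while their molecule label reads hnRNPK-bound, as for the IP libraries. The titles were followed here, and every ratio to IgG rests on that reading. Neither extract was sequenced before the IP, so a nuclear excess in the IP cannot be told apart from a nuclear excess in the extract.

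Libraries of total RNA summed to 25597307 to 41731910 counts, those of cytoplasmic IP to 8834063 to 12068891, and those of nuclear IP to 5336060 to 10581089. Nuclear IgG had 3116786 counts and cytoplasmic IgG 338469, so that 3 counts in the latter amounted to a CPM (count scaled to a fixed library total) of 8.86. The share of counts held by the cluster uc012ath.2 was 12.2% to 28.8% in cytoplasmic IP, 18.6% to 41.2% in nuclear IP and 0.876% to 5.14% in total RNA. Levels below are CPM after TMM scaling, which adjusts for such differences in composition, and values by library size alone are given where they change a statement. Either way a level is relative to its own library. A ratio of IP to IgG, or of nuclear to cytoplasmic, thus does not compare amounts of RNA held by the beads.

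**Figure D1:**
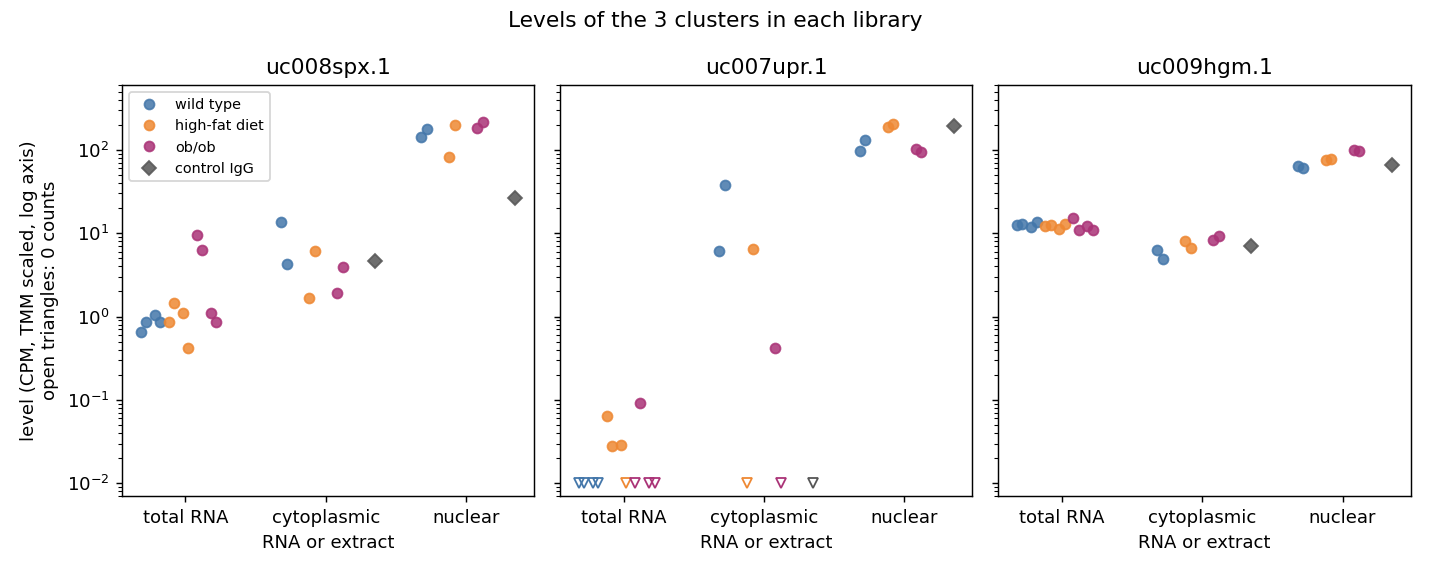
Level of each cluster in every library (CPM after TMM scaling, log axis), by kind of RNA, with circles coloured by mouse group, diamonds for control IgG and open triangles at the bottom edge for 0 counts. All 6 nuclear IP libraries lie above all 6 cytoplasmic IP libraries in each panel, and nuclear IgG lies below them only for uc008spx.1.

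Among 13516 clusters tested for nuclear against cytoplasmic IP, uc007upr.1 ranked 10, uc008spx.1 ranked 13 and uc009hgm.1 ranked 42 by log2 fold change. The estimates, averaged over the mouse groups, were 5.62 ± 0.56 (SE), 5.11 ± 0.33 and 3.37 ± 0.10 in that order. The difference that chose the clusters is common in these data: 64.6% of all clusters were called by edgeR's quasi-likelihood test at an adjusted p under 0.05, 31.0% as higher and 33.6% as lower in the nuclear IP. The median log2 fold change over all clusters was -0.04.

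The clusters could also be placed among the 3496 that were higher in the nuclear IP in all 6 same-numbered pairs of libraries and had a mean log2 CPM of at least 1. There uc008spx.1 came first and uc009hgm.1 was at place 4, and the next, uc008eba.1 (1887 nt), had a log2 fold change of 3.21 ± 0.18 (SE). The 2 clusters between them had 3.48 and 3.44. Cluster uc007upr.1 was higher in the nuclear IP in all 6 pairs too, but its mean log2 CPM of 0.69 left it out, because total RNA held almost none of it.

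**Figure D2:**
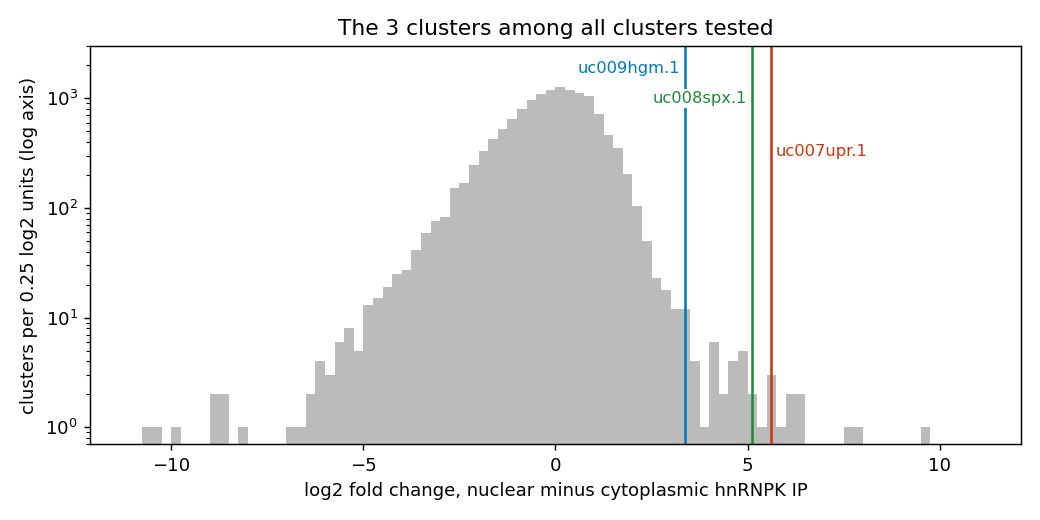
Number of clusters (log axis) by log2 fold change of nuclear minus cytoplasmic hnRNPK IP, in steps of 0.25, with vertical lines at the 3 clusters. The lines lie at 3.37, 5.11 and 5.62, in the thin right tail of 13516 clusters whose median is -0.04.

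Cluster uc008spx.1, the shortest, was the most abundant of the 3 in the nuclear IP per length. The authors' deposited TPM, which divides by length, was 507 to 1595 for it in the nuclear IP, against 303 to 503 for uc007upr.1 and 55.8 to 117 for uc009hgm.1. The ranges of these TPM levels do not overlap between any of the 3 clusters.

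In CPM, uc008spx.1 had nuclear IP levels of 144 and 179 in wild type, 82.6 and 201 with high-fat diet, and 182 and 216 in ob/ob. Both wild-type units lay below both ob/ob units, and high-fat diet overlapped with both groups. By library size the high-fat diet units had 68.0 and 116 CPM, wild type 144 and 163, and ob/ob 175 and 221, so that no groups overlapped. The share of all clusters whose groups separate in this way is not given here. Cytoplasmic IP levels of uc008spx.1 were 13.6 and 4.27 CPM in wild type, 1.65 and 6.17 with high-fat diet, and 1.90 and 3.93 in ob/ob. The highest cytoplasmic value, that of wild-type replicate 1, was thus still lower than the lowest nuclear one. In that library uc012ath.2 took 24.3% of the counts, second among cytoplasmic IP libraries to the 28.8% of high-fat diet replicate 2, which had the next highest uc008spx.1 level. The other 4 had 12.2% to 15.8% of uc012ath.2 and 1.65 to 4.27 CPM of uc008spx.1. Its part in these levels was not tested.

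From summed counts, uc008spx.1 was 17.5 times as high in the nuclear as in the cytoplasmic IP of wild type (95% interval 14.8 to 20.9). The ratio was 34.1 (25.8 to 45.9) in high-fat diet and 71.2 (54.9 to 94.1) in ob/ob. These exact binomial intervals cover counting error only. Against the spread between samples, the ratio did not differ beyond the threshold between mouse groups. The log2 difference of differences was 1.94 ± 0.75 (SE) for ob/ob against wild type, with an edgeR adjusted p of 0.411, and 1.02 ± 0.76 for high-fat diet, with 0.589. The latter turned to -0.04 without cytoplasmic IP replicate 1 of wild type. Without that library the former was 0.89.

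In total RNA, uc008spx.1 was scarce in 10 of 12 libraries and raised in 2. The wild-type libraries had 0.658, 1.06, 0.858 and 0.863 CPM, and those of high-fat diet 0.866, 1.11, 1.47 and 0.416. In ob/ob, replicate 1 had 9.41 CPM in the first library and 1.11 in the second, and replicate 2 had 6.30 and 0.862. The first ob/ob libraries stood above every other total RNA library, while the second ones lay within the range of wild type and high-fat diet.

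With the libraries of a replicate number summed, uc008spx.1 was higher in ob/ob than in wild-type total RNA by 2.24 ± 0.21 on the log2 scale (SE), with an edgeR adjusted p of 0.0189. In this test 1.58% of 15487 clusters were called, 0.684% as higher and 0.891% as lower. Against high-fat diet it was higher by 2.00 ± 0.21, with an edgeR adjusted p of 0.0298, where 0.491% of clusters were called, 0.123% as higher and 0.368% as lower. In bulk tissue, more cells that hold an RNA and more of it per cell cannot be told apart. Taken from the first libraries alone, the difference from wild type was 3.42 ± 0.36 (edgeR adjusted p = 0.0192), and from the second libraries alone it was 0.08 ± 0.48 (edgeR adjusted p = 0.93). Against high-fat diet the second libraries alone gave 0.38 ± 0.49 (edgeR adjusted p = 0.684). The call was thus present with the first libraries and absent with the second. Without ob/ob replicate 1 or 2 the adjusted p against wild type was 0.177 or 0.138, and no cluster of the whole table passed in either case. Against high-fat diet it was 0.205 to 0.28 with any 1 ob/ob or high-fat diet replicate left out.

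The first ob/ob library exceeded the second by 8.47-fold in replicate 1 (95% interval 6.23 to 11.7) and 7.22-fold in replicate 2 (5.17 to 10.3). Among 13133 clusters with at least 100 counts in ob/ob total RNA, only uc008spx.1 and uc029six.1 (325 nt) were at least 4-fold higher in the first library of both replicates, which is 0.0152%. No cluster met this in wild type (0.0% of 12851) or high-fat diet (0.0% of 13015). In high-fat diet replicate 2, uc008spx.1 was 3.54-fold higher in the first library (95% interval 2.06 to 6.41). Its ratio of first to second library was 0.778 in high-fat diet replicate 1, and 0.623 and 0.995 in wild type. Cluster uc029six.1, named after its values were seen, had 9.83 and 6.07 CPM in the first libraries against 0.635 and 1.18 in the second. Its log2 fold change of nuclear over cytoplasmic IP was 0.83 ± 0.39 (SE). Cluster uc012ath.2 also took more of the first ob/ob libraries, 5.14% and 3.38% of counts, than of the second, with 1.22% and 1.5%. What the second number in the labels stands for is not given, and its part in the result was not tested.

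**Figure D3:**
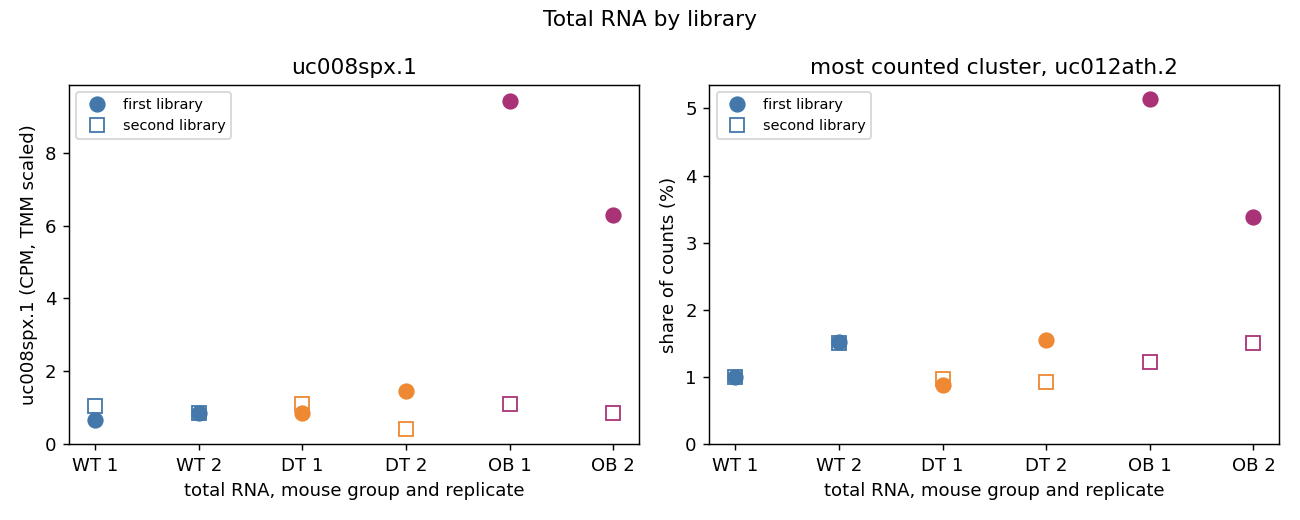
Left, level of uc008spx.1 in each total RNA library (CPM after TMM scaling) by mouse group (WT wild type, DT high-fat diet, OB ob/ob) and replicate number. Right, share of counts taken by the most counted cluster. Filled circles are first libraries and open squares second ones. The 2 first ob/ob libraries, with 9.41 and 6.30 CPM and with 5.14% and 3.38%, stand above the other 10 in both panels.

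High-fat diet did not separate from wild type in total RNA for uc008spx.1. The log2 difference was 0.23 ± 0.21 (SE, edgeR adjusted p = 0.743), and it was -0.30 from the second libraries alone. No cluster passed in this comparison by edgeR (0.0% of 15487), with 1527 at an unadjusted p under 0.05, and DESeq2 called 320.

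Nuclear IgG held 105 counts of uc008spx.1, or 33.7 CPM by library size (95% Poisson interval 27.6 to 40.8). After TMM scaling the 6 nuclear IP units were 3.09 to 8.09 times the IgG level, and by library size 2.02 to 6.55 times. All 6 units thus lay above IgG with either scaling. Of the 13037 tested clusters with a nuclear IgG count, 22.3% did so after TMM scaling and 3.07% by library size. The same nuclear IP values took part in choosing uc008spx.1, so its place against these shares is a description only. With 1 IgG library there is no test of this difference.

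Cluster uc007upr.1 had the largest averaged nuclear over cytoplasmic difference of the 3 but the lowest ratio in wild type. Its CPM in nuclear IgG was above that of most nuclear IP units. Its nuclear IP levels were 96.0 and 131 CPM in wild type. They were 190 and 202 CPM with high-fat diet, and 103 and 94.8 in ob/ob. The high-fat diet units were above the others, which overlapped. By library size high-fat diet replicate 2 had 117 CPM, below the 120.0 of wild-type replicate 2, so that this separation was lost. How many of all clusters separate in this way is not given here. Against the spread between samples, high-fat diet did not differ from wild type beyond the threshold (log2 difference 0.73 ± 0.67, SE, edgeR adjusted p = 0.547). Nuclear IgG had 192 CPM, within the high-fat diet units and above the other 4. By library size, IgG had 242 CPM and the 6 units 96.4 to 156, so that none of them reached it. The ratio of nuclear IP to nuclear IgG ran from 0.494 to 1.05 with TMM scaling and from 0.398 to 0.645 by library size.

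In the cytoplasmic IP, uc007upr.1 had 6.17 and 37.5 CPM in wild type, 0 and 6.46 with high-fat diet, and 0.421 and 0 in ob/ob. Wild-type replicate 2 alone held 290 of the 386 summed cytoplasmic counts. The ratio of nuclear to cytoplasmic IP was 5.21 in wild type (95% interval 4.64 to 5.86), 67.2 in high-fat diet (49.3 to 94.0) and 402 in ob/ob (172 to 1241), from summed counts. In the test against the spread between samples, the log2 nuclear excess in ob/ob minus that in wild type was 6.27 ± 1.53 (SE), with an edgeR adjusted p of 0.257. For high-fat diet it was 3.61 ± 1.14, with 0.216. Neither passed. Without cytoplasmic IP replicate 2 of wild type these estimates were 4.41 and 1.76. They were 12.4 without cytoplasmic IP replicate 1 of ob/ob and 13.4 without replicate 2 of high-fat diet, each of which leaves a group at 0.

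Total RNA held 9.38 estimated counts of uc007upr.1 over all 12 libraries. They came from 4 libraries, the first of ob/ob replicate 2 with 3.99 counts and 3 of high-fat diet with 2.74, 1.29 and 1.36. Wild type had 0 in all 4 of its libraries. The cluster did not pass the filter on low counts in total RNA, so the main test leaves it out there. With no filter the edgeR adjusted p was 0.392 for ob/ob against wild type, 0.698 for high-fat diet against wild type and 0.974 for ob/ob against high-fat diet. Summed over wild type, the nuclear IP level was at least 6158 times that of total RNA, with a floor of 3 counts over the group.

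Whether reads belong to uc007upr.1 is less certain than for the others. RSEM, the program behind the deposited estimates, divides a read between transcripts that match it, which leaves estimates that are not whole numbers. The estimate was not whole, to a tolerance of 0.005 counts, in all 15 libraries where uc007upr.1 was above 0, against 4 of 26 for uc008spx.1 and 8 of 26 for uc009hgm.1. Over all clusters above 0, the share that was not whole was 18.1% to 28.5% in nuclear IP libraries. The next cluster number belongs to an abundant cluster, uc007upt.1, with 653 to 864 CPM in total RNA. Its nuclear IP level of 129 to 291 CPM overlapped its cytoplasmic level of 160 to 251, and its log2 fold change was -0.17 ± 0.10 (SE). Whether reads were divided between these neighbours was not tested.

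Cluster uc009hgm.1 had the smallest nuclear over cytoplasmic IP difference of the 3 when averaged over mouse groups, though not in wild type, where uc007upr.1 had the lower ratio. Nuclear IP levels were 64.8 and 60.1 CPM in wild type, 74.7 and 78.0 with high-fat diet, and 98.7 and 95.8 in ob/ob, with no overlap between groups. By library size wild type had 65.0 and 55.0 CPM and high-fat diet 61.5 and 45.2, which overlap, and ob/ob stayed above both. Cytoplasmic IP levels were 6.23 and 4.92 CPM in wild type, 8.13 and 6.64 with high-fat diet, and 8.32 and 9.34 in ob/ob. No groups overlapped, with wild type lowest and ob/ob highest. For neither IP is the share of all clusters that separate in this way given here. By library size wild type had 5.09 and 4.03 CPM and high-fat diet 7.24 and 4.39, which overlap, and both stayed below the 7.61 and 7.92 of ob/ob. Total RNA units had 10.9 to 13.4 CPM, between both IPs, so that uc009hgm.1 was scarcer in the cytoplasmic IP than in total RNA and more abundant in the nuclear one.

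The nuclear IP level of uc009hgm.1 was higher in ob/ob (97.3 ± 2.09 CPM, SD, n = 2) than in wild type (62.5 ± 3.30), with a log2 difference of 0.60 ± 0.14 (SE) and an edgeR adjusted p of 0.0143. It was the only one of the 3 clusters called in this comparison, where 13.7% of 13516 clusters were called, 5.5% of them higher and 8.23% lower as shares of all tested. This fit drew its estimate of spread from total RNA units as well as IP units. On the 12 IP units alone the difference was 0.61 ± 0.16, with an edgeR adjusted p of 0.0377. There 1006 of 12502 clusters were called, 413 as higher and 593 as lower. By library size the difference was 0.68 ± 0.23, with an edgeR adjusted p of 0.0949. The adjusted p was 0.0659 without nuclear IP replicate 2 of ob/ob and 0.0831 without that of wild type. High-fat diet was 0.23 ± 0.15 above wild type (edgeR adjusted p = 0.352), a direction that turned to -0.17 by library size. Between ob/ob and high-fat diet the difference was 0.37 ± 0.15 (edgeR adjusted p = 0.173), and by library size 0.85 ± 0.23 (edgeR adjusted p = 0.0309).

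The nuclear excess of uc009hgm.1 had overlapping intervals in the mouse groups. From summed counts the ratio of nuclear to cytoplasmic IP was 11.2 in wild type (95% interval 9.04 to 14.1), 10.2 in high-fat diet (8.26 to 12.6) and 11.03 in ob/ob (9.43 to 13.0). The log2 difference of differences was -0.03 ± 0.23 (SE) for ob/ob and -0.15 ± 0.24 for high-fat diet, with edgeR adjusted p of 0.99 and 0.823. For ob/ob, 4 of 8 fits that left out 1 library turned the sign. In total RNA the log2 difference from wild type was -0.03 ± 0.13 for ob/ob and -0.04 ± 0.13 for high-fat diet (edgeR adjusted p = 0.902 and 0.952), and both turned positive by library size.

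Nuclear IgG had 66.4 CPM of uc009hgm.1 after TMM scaling. Both ob/ob and both high-fat diet units of the nuclear IP lay above it and both wild-type units below. The IgG level rests on 261 counts in 1 library, and its counting error is wide enough to leave this split by mouse group unsettled. By library size IgG had 83.7 CPM (95% Poisson interval 73.9 to 94.5), and only the ob/ob units, with 94.8 and 97.8, lay above it. The ratio of IP to IgG ran from 0.905 to 1.49 with TMM scaling and from 0.539 to 1.17 by library size.

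**Figure D4:**
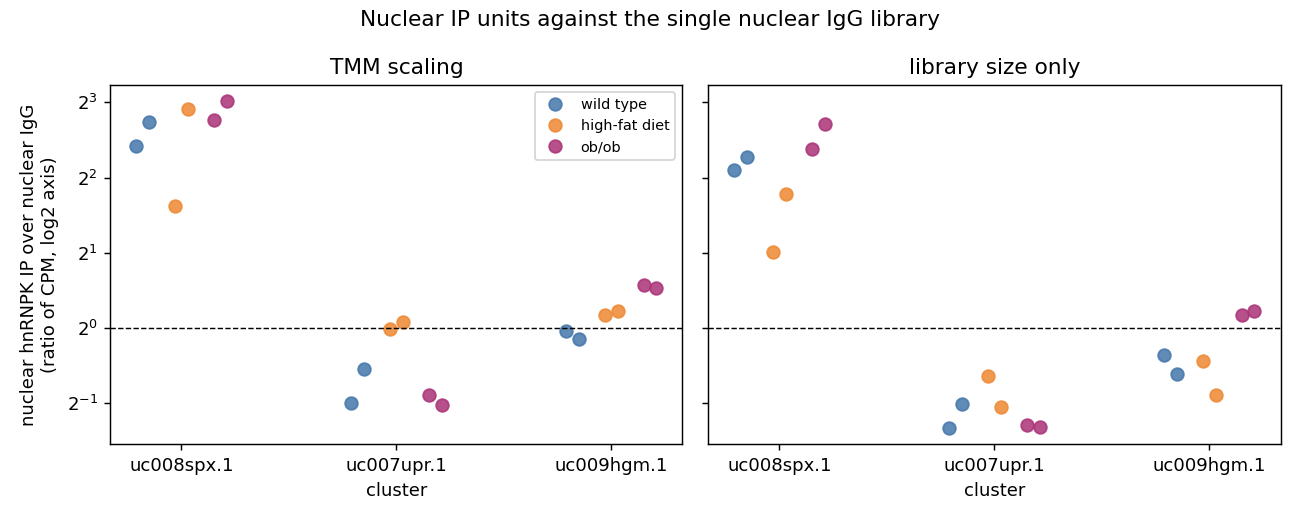
Ratio of each nuclear IP unit to the single nuclear IgG library (log2 axis) after TMM scaling, left, and by library size, right, coloured by mouse group. The dashed line marks equality. Cluster uc008spx.1 lies above the line in 6 of 6 units in both panels, uc007upr.1 in 1 and 0, and uc009hgm.1 in 4 and 2.

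For the other 2 clusters the nuclear IP did not separate the mouse groups beyond the spread. For uc008spx.1 the log2 difference from wild type was 0.27 ± 0.44 for ob/ob and -0.25 ± 0.44 for high-fat diet (edgeR adjusted p = 0.722 and 0.777). The latter was 0.25 without high-fat diet replicate 1. For uc007upr.1 the differences were -0.23 ± 0.67 and 0.73 ± 0.67 (edgeR adjusted p = 0.855 and 0.547). The former was 0.01 without nuclear IP replicate 2 of wild type. Between ob/ob and high-fat diet they were 0.52 ± 0.44 for uc008spx.1 and -0.96 ± 0.68 for uc007upr.1 (edgeR adjusted p = 0.563 and 0.483). With high-fat diet against wild type 5.37% of clusters were called, 2.23% higher and 3.14% lower, and with ob/ob against high-fat diet 3.0%, 1.18% higher and 1.83% lower. No cluster of the table passed in either difference of nuclear and cytoplasmic IP between mouse groups by edgeR (0.0% of 13516). At an unadjusted p under 0.05 there were 1418 for ob/ob and 1840 for high-fat diet, and DESeq2 called 134 and 261. None of the 3 clusters was among those DESeq2 calls. These fits did not pair same-numbered nuclear and cytoplasmic units within a mouse group.

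The control IgG libraries were not used to choose the clusters, and there too the CPM of each was higher from nuclear than from cytoplasmic extract. By library size the ratio of nuclear to cytoplasmic IgG was 5.70 for uc008spx.1 (95% interval 1.54 to 47.7, from 105 and 2 counts) and 9.45 for uc009hgm.1 (3.20 to 46.1, from 261 and 3 counts). For uc007upr.1, with 754 and 0 counts, it was 27.3 when the 0 was set to 3. The 95% Poisson upper limit for that 0 was 10.9 CPM, above the 8.86 CPM of 3 counts. Among 4120 tested clusters with at least 100 nuclear IgG counts, 3.16% were at least 4-fold higher in nuclear IgG when the cytoplasmic count was set to no less than 3. Of the 3 clusters, uc007upr.1 and uc009hgm.1 met this rule. Cluster uc008spx.1 could not meet it, because 105 nuclear counts give at most 3.80 against that floor. The same holds for any cluster with fewer nuclear counts, and the share includes these as not meeting the rule. The lower bounds of the counting intervals for uc008spx.1 and uc009hgm.1 lie under 4, so the depth of cytoplasmic IgG does not settle their ratios.

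The 3 clusters differ in length, and the share of clusters higher in the nuclear IP differed between length classes. Of 26 tested single-isoform clusters under 300 nt, 61.5% were called higher in the nuclear than in the cytoplasmic IP, with a median log2 fold change of 2.24, and uc008spx.1 was at place 7 among them. From 300 to under 600 nt, 16.0% of 213 were called higher, with a median of -1.03, and uc007upr.1 was at place 2. From 600 to under 1000 nt the share was 13.9% of 461. At 1000 nt or more 30.5% of 3946 were called higher, with a median of -0.01, and uc009hgm.1 was at place 18. Most tested clusters under 300 nt, uc008spx.1 among them, were thus higher in the nuclear IP, and few in the class of uc007upr.1 were. A cluster could pass the filter on low counts through the nuclear IP alone, so these shares may depend on that filter.

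Clusters with adjacent numbers had a smaller nuclear excess or none where they were measured. Because uc008spx.1, uc007upr.1 and uc009hgm.1 were chosen for a large excess, almost any other cluster would have a smaller one. The comparison with neighbours is thus a description only. Beside uc008spx.1, uc008spy.2 (814 nt) had 8.42 to 25.1 CPM in the nuclear and 7.21 to 19.8 in the cytoplasmic IP, with a log2 fold change of 0.24 ± 0.18 (SE). Below uc007upr.1, uc007upq.2 had 1.39 ± 0.25. Both neighbours of uc009hgm.1, and the other one of uc008spx.1, were too scarce to be tested. The files used here give no genome positions, so adjacent numbers are only that.

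Likeness of pattern was measured by Pearson's r of log2 CPM over the 18 units, among 10668 clusters, as a description with no test. The closest to uc008spx.1 were uc008rxn.1 and uc007zwj.1, both with r = 0.951. Those closest to uc007upr.1 were uc009osn.1 (0.944) and uc009jpc.1 (0.943), and those closest to uc009hgm.1 were uc007lnc.1 (0.984) and uc008jyt.2 (0.979). These 6 had log2 fold changes of nuclear over cytoplasmic IP from 1.08 to 2.57, smaller than in the cluster they resembled. The 3 were chosen for large values and r does not measure size, so almost any cluster would have a smaller one. Between the 3 clusters r was 0.897 for uc008spx.1 with uc007upr.1, 0.851 for uc008spx.1 with uc009hgm.1 and 0.674 for uc007upr.1 with uc009hgm.1. The points share libraries and fall into 3 kinds of RNA, and the clusters were chosen for the same contrast. The nuclear IP was highest for all 3, while the order of the other fractions differed, with total RNA above the cytoplasmic IP for uc009hgm.1 and below it in wild type for the other 2.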

How the data were processed

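The deposited tables hold 1 row per transcript with estimated counts (expected counts), TPM and isoform percent, as the authors' RSEM run wrote them. RSEM 1.2.8 is named, with bcl2fastq, TopHat2 2.0.10, Bowtie2 2.1.0, SAMtools and build mm10, without role or order, per the submitters' processing notes. Single-isoform clusters were found by counting the transcripts of each cluster. Strandedness and annotation release are not given in the sources used here, so antisense overlap cannot be judged.

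For each cluster the deposited expected counts were added up, then rounded. The 2 total RNA libraries of a replicate number were summed to 1 unit, giving 18 units, which the labels do not state. Tests used edgeR 4.0.16 (R 4.3.3, limma 3.58.1) quasi-likelihood fits with TMM and filterByExpr, Benjamini-Hochberg adjustment over all clusters and a threshold of 0.05: total RNA on 6 units, IP comparisons on 18. SE is the absolute log2 fold change over the square root of F. DESeq2 1.42.0 was an alternative. Fits were tested on simulated counts. IgG entered no test. Intervals are exact binomial or Poisson and, like floors, cover counting error only.

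The members and lists were chosen with earlier results of these data known. The rule for named clusters was the 3 members, the 2 most like each over 18 units, and the next by rank; planned symbol lists and cell type markers could not be used without symbols, and no sequence was matched.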

Additional observations from a re-analysis of the deposited data

How the results depend on the processing

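The nuclear over cytoplasmic log2 fold change of the 3 clusters stayed positive under every alternative run. It ran from 4.85 to 5.51 for uc008spx.1, 5.24 to 8.89 for uc007upr.1 (8.89 leaving out cytoplasmic IP replicate 2 of high-fat diet, 7.71 leaving out replicate 1 of ob/ob) and 3.32 to 3.52 for uc009hgm.1. Precision is limited by 2 units per group, and for uc007upr.1 also by low cytoplasmic IP counts and estimates that are not whole. Deviations of replicate 1 from its group mean correlated between kinds of RNA by 0.353 to 0.417 within wild type and 0.28 to 0.325 within ob/ob, but by -0.12 to 0.094 within high-fat diet. Between mouse groups they correlated by -0.27 to 0.115, so the numbers were not taken to pair samples across the groups compared.

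The number of clusters called moved as follows. For total RNA of ob/ob against wild type (244) it was 91 by library size, 387 without a filter, 2104 with DESeq2, 5777 with each library as a replicate and 63 with a replicate block; leaving out 1 replicate gave 0 to 3221. For ob/ob against high-fat diet (76) it was 49, 144, 1433, 4885 and 33 in the same order, 133 from second libraries alone, an alternative added after seeing the data, and 0 to 12 with 1 left out. For high-fat diet against wild type (0) it was 320 with DESeq2, 2001 with each library as a replicate, 2 from first libraries alone and 0 to 1175 with 1 left out. With the replicate block the adjusted p of uc008spx.1 was 0.0533 against wild type and 0.0951 against high-fat diet, with log2 differences of 2.23 and 2.00; no other call on the 3 clusters changed under it.

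For nuclear IP of ob/ob against wild type (1855; 743 higher, 1112 lower) the count was 590 by library size (378 higher, 212 lower), 1006 on the 12 IP units and 389 to 1680 with 1 left out. For high-fat diet against wild type (726; 302 higher, 424 lower) it was 1668 by library size (65 higher, 1603 lower, around a median of -0.45), 1463 with DESeq2, 189 on IP units and 64 to 340 with 1 left out. For ob/ob against high-fat diet (406; 159 higher, 247 lower) it was 1387 by library size (1317 higher, 70 lower, around a median of 0.49), 960 with DESeq2, 182 on IP units and 72 to 196 with 1 left out. For nuclear against cytoplasmic IP (4192 higher, 4543 lower) the split by library size was 4542 and 3645. For the differences of nuclear and cytoplasmic IP from wild type (0 and 0) DESeq2 gave 134 for ob/ob and 261 for high-fat diet, no filter gave 6 for ob/ob, and 1 left out gave 0 to 14 and 0 to 9.

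Signs also turned for some differences, none of which passed a threshold. For uc009hgm.1 in total RNA, ob/ob minus wild type became 0.046 by library size and 0.079 from first libraries, and ran from -0.19 to 0.094 with 1 replicate left out. High-fat diet minus wild type became 0.078 by library size and ran from -0.093 to 0.021 with 1 left out. Ob/ob minus high-fat diet became -0.032 by library size, -0.004 without a filter and -0.057 from second libraries, and ran from -0.146 to 0.137 with 1 left out. In nuclear IP, high-fat diet minus wild type became -0.169 by library size. The difference of differences for ob/ob ran from -0.198 to 0.118 with 1 left out. For uc008spx.1, high-fat diet minus wild type became -0.303 in total RNA from second libraries. With 1 left out it ran from -0.996 to 0.253 in nuclear IP and from -0.04 to 2.217 in the difference of differences. For uc007upr.1, ob/ob minus wild type in nuclear IP ran from -0.408 to 0.013 with 1 left out. The cause was not tested. Each cluster has 1 isoform, so counting isoforms apart gives the same values.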
